A study of Mus musculus with 4 samples.

Results

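The respiratory chain was described across 4 RNA-seq libraries of cultured mouse lung ILC2s. Its genes were taken by their symbols, those of NADH dehydrogenase (Ndufa, Ndufb, Ndufc, Ndufs and Ndufv genes), succinate dehydrogenase, the cytochrome bc1 complex, cytochrome c oxidase, cytochrome c, ATP synthase and the protein genes of mitochondrial DNA. The symbols matched 107 of the 17187 genes measured. Of these, 81 were nuclear genes, 13 were encoded in mitochondrial DNA, and 13 were pseudogene copies of nuclear members. By complex, the nuclear genes were 36 of complex I, 4 of complex II, 8 of complex III, 15 of complex IV, 17 of complex V and Cycs. Group 2 innate lymphoid cells (ILC2s) are tissue lymphocytes that make type 2 cytokines and carry no antigen receptor. The cells came by sorting from BALB/c mouse lungs and were kept in culture for 18 hours. One group received an antibody against CD226, a costimulatory receptor, for which the labels give 5 µg/mL, and the other received an isotype control antibody. Each group had 2 libraries, and the labels leave out whether these came from separate mice or cultures. The p-values therefore rest on the spread between libraries alone, and that spread may be technical. The labels name no genotype, age, sex or further treatment. In its treatment column the deposited table lists the controls as PBS, and the series' design text has the mice treated. The groups follow the sample labels.

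The respiratory chain lies in the inner mitochondrial membrane. Complexes I and II take electrons from NADH and succinate, coenzyme Q carries them to complex III, cytochrome c carries them on to complex IV, and complex IV hands them to oxygen. Complexes I, III and IV pump protons, and complex V (ATP synthase) uses the return of those protons to make ATP. Complex II is made wholly from nuclear genes, whereas the other complexes join nuclear subunits to a few core subunits that mitochondrial DNA encodes. The mitochondrial genes are transcribed as long transcripts of whole strands that are then cut apart, so they share promoters. The nuclear subunit genes are transcribed separately. Activated lymphocytes are known to use both oxidative phosphorylation and glycolysis.

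The values are normalised reads per gene and library. The estimated depth lay between 12433690 and 17847258 reads, and a count of 0 allows up to 2.32 to 3.32 normalised reads (3 reads, counting error only). Of 11 ILC2 markers all were in the table, and the lowest value of any of them in any library was 614 normalised reads (Areg). They summed to 173551 and 167583 with anti-CD226 and to 183367 and 184526 with isotype, although 7 of the 11 had a higher mean with anti-CD226. Over the 13010 genes tested, limma called 0 (0.0%) at an adjusted p below 0.05, and 308 (2.37%) had an unadjusted p below 0.05. The count of calls was 1633 and 53 without anti-CD226 replicates 1 and 2 in turn, and 12 and 17 without isotype replicates 1 and 2 in turn. The libraries of a group differed from each other. Of 13 macrophage markers 10 were in the table, and they summed to 588 and 1926 with anti-CD226 and to 302 and 285 with isotype. Of the 10, 8 had a higher mean with anti-CD226. The macrophage sum was thus highest in anti-CD226 replicate 2, which is also the library in which the nuclear respiratory chain genes were lowest. The macrophage gene Lyz2 had 8.24 and 51.8 with anti-CD226 and 3.32 and 0.773 with isotype, and Mmp12 had 168 and 678 with anti-CD226 and 34.3 and 2.32 with isotype. Csf1r, which defines macrophages, was at or below 3 reads in every library. T cell markers, 6 of 8 in the table, summed to 3339 and 2241 with anti-CD226 and to 3176 and 3706 with isotype. The 3 epithelial markers summed to 190 and 184 with anti-CD226 and to 188 and 250 with isotype. The part of other cells in the results below was not tested.

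The nuclear genes of the respiratory chain were mostly low in 1 of the anti-CD226 libraries, replicate 2. Of the 81 nuclear genes, 76 had a mean log2 fold change below 0 (anti-CD226 over isotype) and 5 above it, with a median of -0.26, whereas 48.9% of all genes tested were below 0 and their median was 0.01. Set against the isotype mean on the log2 scale, the nuclear median was 0.08 and -0.60 in anti-CD226 replicates 1 and 2, against -0.13 and 0.13 in isotype replicates 1 and 2. Anti-CD226 replicate 2 was the lowest of the 4 libraries for 75 of the 81 genes, and for 37.2% of all genes tested. Isotype replicate 2 was the highest for 59 of the 81, and for 24.9% of all genes tested. In anti-CD226 replicate 1, by contrast, 58 of the 81 genes lay between the isotype libraries, 20 above both and 3 below both. Of the 13010 genes tested, 5291 lay between the isotype libraries in anti-CD226 replicate 1. The direction of the nuclear median therefore rested on 1 library. Without anti-CD226 replicate 2 the median was 0.08, and without anti-CD226 replicate 1 it was -0.60. Leaving out isotype replicate 1 gave -0.40, and leaving out isotype replicate 2 gave -0.13.

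None of the 102 members that passed the filter on low values (a mean of at least 10) was called at an adjusted p below 0.05, against 0.0% of all genes, and the smallest adjusted p of a member was 0.982 (limma, Benjamini-Hochberg over all genes tested). The 5 members that did not pass were all pseudogene copies. At an unadjusted p below 0.05, limma had 1 member lower, mt-Nd3, and 0 higher, where 0.815% of all genes were lower and 1.55% higher. The 2 groups did not overlap for 6 of the 102 members, or 5.88%, against 26.8% of all genes tested. All 6 were lower with anti-CD226, whereas of the 13010 genes 1797 were higher and 1696 lower without overlap. Among the 81 nuclear genes, the non-overlapping ones were Cox7a1 and Ndufv2, which is 2.47%. Without anti-CD226 replicate 1, limma called 55 members, all lower, but it then called 12.6% of all genes tested. That fit compares 1 anti-CD226 library with the isotype libraries and assumes that the lone library varies as they do.

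**Figure D1:**
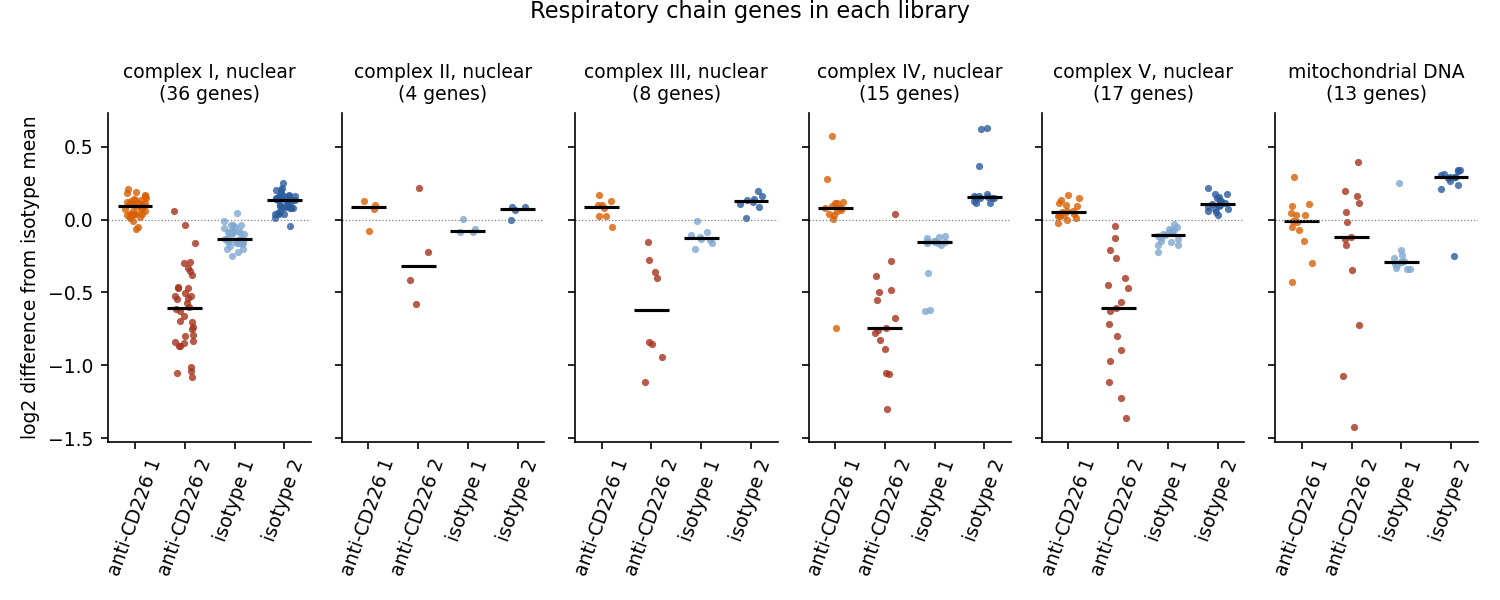
Each point is a gene. The vertical axis gives log2(value + 1) in that library minus the mean of the isotype libraries, by complex for nuclear genes and for the mitochondrially encoded genes, with anti-CD226 replicates left of isotype replicates and a bar at the median. Isotype points mirror each other because their own mean is the zero line. Nuclear genes of each complex sit lowest in anti-CD226 replicate 2, with a median of -0.74 for complex IV and -0.32 for complex II.

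As a share of all signal, the 81 nuclear genes made up 1.80% and 1.26% of anti-CD226 libraries 1 and 2, against 1.62% and 1.86% of isotype libraries 1 and 2. The means were 1.53% ± 0.382 with anti-CD226 and 1.74% ± 0.168 with isotype (SD, n = 2 each; exact permutation test, two-sided p = 0.667, where 2 against 2 libraries cannot go below 0.33). The 13 mitochondrially encoded genes made up 0.524% and 0.480% with anti-CD226 and 0.445% and 0.672% with isotype, with means of 0.502% ± 0.0309 and 0.559% ± 0.160 (SD, n = 2 each; exact permutation test, two-sided p = 1.0). The ratio of mitochondrially encoded to nuclear signal, which no library-wide scaling can move, was 0.291 and 0.381 with anti-CD226 and 0.274 and 0.361 with isotype. Each group thus held a low and a high library, and the groups overlapped (log2 difference 0.08, exact permutation test, two-sided p = 0.667). Without anti-CD226 replicates 1 and 2 in turn that difference was 0.28 and -0.11, and without isotype replicates 1 and 2 in turn it was -0.12 and 0.28. In bulk RNA, fewer cells that carry a transcript and less of it per cell cannot be told apart.

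**Figure D2:**
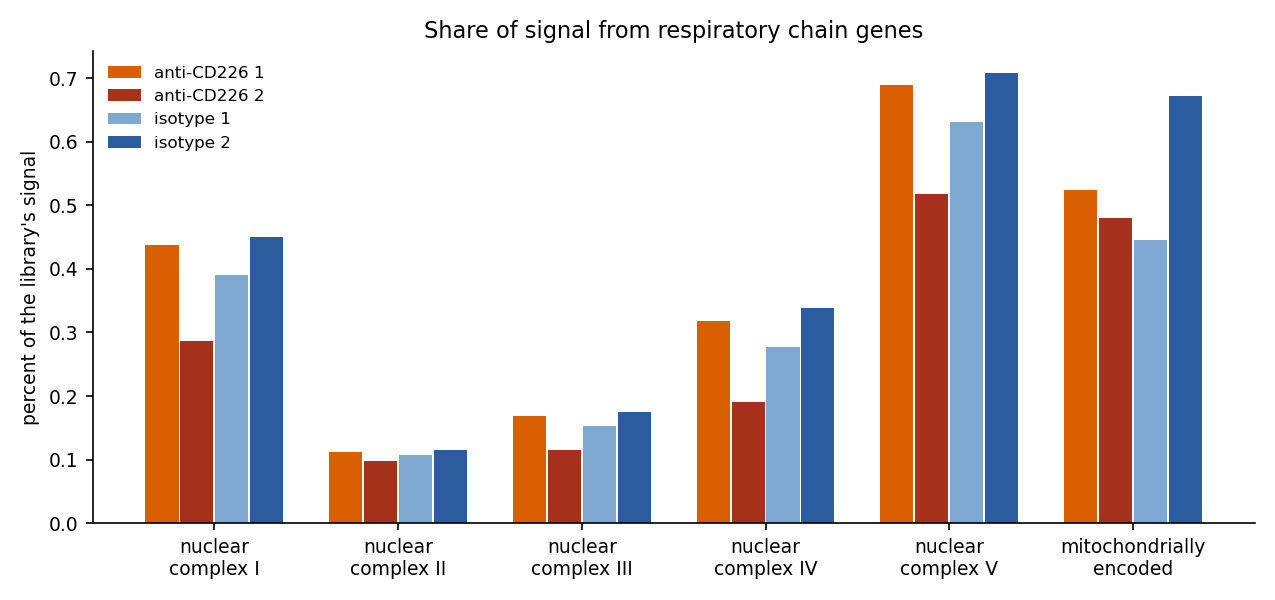
Bars give the percent of a library's signal that came from the nuclear genes of each complex and from the 13 mitochondrially encoded genes, 1 bar a library, with anti-CD226 left of isotype. For complex V the bars stand at 0.690% and 0.518% with anti-CD226 and at 0.632% and 0.708% with isotype, and in each nuclear complex anti-CD226 replicate 2 is lowest.

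Complex I, the NADH dehydrogenase through which most electrons enter the chain, had 36 nuclear genes, of which 34 had a log2 fold change below 0 and 2 above it (median -0.26). The complex I median was -0.60 and 0.09 without anti-CD226 replicates 1 and 2 in turn, and -0.41 and -0.13 without isotype replicates 1 and 2 in turn. The nuclear transcripts with the most reads were Ndufb8, an accessory subunit of the membrane arm, and Ndufv1, the core subunit that binds NADH. Ndufb8 had 3006 and 1646 in anti-CD226 replicates 1 and 2, against 2814 and 3048 in isotype replicates 1 and 2. Ndufv1 had 2599.7 and 2121 in anti-CD226 replicates 1 and 2, against 2311 and 2425 in isotype replicates 1 and 2. For Ndufb8 the low library was anti-CD226 replicate 2 alone, and the Ndufv1 values spanned a narrower range. The 2 genes with a fold change above 0 were Ndufa10 and Ndufs1. Ndufa10, an accessory subunit, had 2195 and 1903 with anti-CD226 and 1902 and 2007 with isotype, and its groups overlapped. Ndufs1, the large iron-sulphur core subunit, had 2243 and 2312 with anti-CD226 and 2285 and 2153 with isotype, and its groups overlapped too. The smallest p-values in the lower direction belonged to the accessory genes Ndufb4 and Ndufb1-ps. The symbol Ndufb1-ps names a pseudogene, but RefSeq lists the locus as the protein-coding gene Ndufb1, and it was counted with the genes. Ndufb4 had 779.8 and 381 in anti-CD226 replicates 1 and 2, against 692 and 889 in isotype replicates 1 and 2. Ndufb1-ps had 1259 and 593 in anti-CD226 replicates 1 and 2, against 1124 and 1352 in isotype replicates 1 and 2. In both genes anti-CD226 replicate 1 lay between the isotype libraries. Their log2 fold changes were -0.52 ± 0.32 (SE) and -0.51 ± 0.33 (SE), each with an adjusted p of 0.98 (limma). Ndufv2, the core partner of Ndufv1, had 2147 and 1528 with anti-CD226 and 2156 and 2303 with isotype. Both anti-CD226 values of Ndufv2 lay below both isotype values, the higher of them by less than 10 normalised reads.

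Complex II, the succinate dehydrogenase shared with the tricarboxylic acid cycle, had the smallest nuclear difference of the complexes, with a median log2 fold change of -0.10 over its 4 genes. The complex II median was -0.32 and 0.09 without anti-CD226 replicates 1 and 2 in turn, and -0.18 and -0.03 without isotype replicates 1 and 2 in turn. Sdha, the flavoprotein that oxidises succinate, had 4852 and 5967 in anti-CD226 replicates 1 and 2, against 5137 and 5132 in isotype replicates 1 and 2. Sdha was one of the 2 nuclear genes that lay above both isotype libraries in anti-CD226 replicate 2. Sdhb, the iron-sulphur subunit, had 5545 and 3869 in anti-CD226 replicates 1 and 2, against 4934 and 5411 in isotype replicates 1 and 2. The membrane anchors, Sdhc and Sdhd, bind coenzyme Q. Sdhc had 1681 and 1324 with anti-CD226 and 1453 and 1634 with isotype. Sdhd had 3604 and 2295 with anti-CD226 and 3228 and 3628 with isotype. Sdhb, Sdhc and Sdhd were all lowest in anti-CD226 replicate 2 and above the isotype replicate 1 value in anti-CD226 replicate 1. The adjusted p of each of the 4 genes was at least 0.98 (limma).

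Complex III, the cytochrome bc1 complex, had 8 nuclear genes, all with a log2 fold change below 0 (median -0.25). The complex III median was -0.62 and 0.09 without anti-CD226 replicates 1 and 2 in turn, and -0.41 and -0.09 without isotype replicates 1 and 2 in turn. Uqcrc1, a large core protein, had 6168 and 5441 in anti-CD226 replicates 1 and 2, against 5998 and 6108 in isotype replicates 1 and 2. Uqcrq, a small subunit, had 3620.0 and 1836 in anti-CD226 replicates 1 and 2, against 3009 and 3658 in isotype replicates 1 and 2. Both were lowest in anti-CD226 replicate 2, Uqcrc1 by little and Uqcrq by more. The small subunits Uqcr10 and Uqcr11 had the smallest p-values of the complex. Uqcr10 had 2332 and 1056 with anti-CD226 and 2123 and 2469 with isotype, and its log2 fold change was -0.54 ± 0.33 (SE). Uqcr11 had 2073 and 1119.8 with anti-CD226 and 1957 and 2364 with isotype, and its log2 fold change was -0.50 ± 0.28 (SE). Neither passed the test (limma, adjusted p = 0.98 each), and anti-CD226 replicate 1 lay between the isotype libraries for both. Cycs, the cytochrome c that links complex III to complex IV and that also starts apoptosis when released, had 10297 and 7146 in anti-CD226 replicates 1 and 2, against 8982 and 10672 in isotype replicates 1 and 2. Cycs followed the same order of libraries, with anti-CD226 replicate 2 lowest.

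Complex IV, cytochrome c oxidase, had the lowest median log2 fold change of the nuclear complexes, -0.31, with 14 of 15 genes below 0. The complex IV median was -0.74 and 0.08 without anti-CD226 replicates 1 and 2 in turn, and -0.48 and -0.16 without isotype replicates 1 and 2 in turn. Several of its subunits exist as a widely expressed form and a form typical of muscle or testis, and in these ILC2s the widely expressed forms had the higher levels per kilobase of transcript. Cox6a1 stood at 9282 normalised reads per kilobase (mean of 4 libraries) and Cox6a2 at 18.8, Cox6b1 at 6443 and Cox6b2 at 40.2, and Cox7a2 at 5441 and Cox7a1 at 44.5. Cox6a1 had 5714 and 4277 with anti-CD226 and 5154 and 6056 with isotype, and its muscle form Cox6a2 had 16.5 and 11.0 with anti-CD226 and 6.63 and 17.0 with isotype. Cox6b1 had 4670.2 and 2579 with anti-CD226 and 3883 and 4794 with isotype, and its testis form Cox6b2 had 21.6 and 14.3 with anti-CD226 and 11.1 and 27.8 with isotype. Cox7a2 had 3995 and 2326 with anti-CD226 and 3593 and 4430.2 with isotype, and its muscle form Cox7a1 had 13.4 and 8.82 with anti-CD226 and 17.7 and 30.1 with isotype. Cox7a1 was one of the nuclear genes whose groups did not overlap, at a log2 fold change of -1.02 ± 0.53 (SE) and an adjusted p of 0.98 (limma), but it rested on few reads. Cox7a2l, a relative of Cox7a2 known for joining complexes III and IV into supercomplexes, had 805 and 451 with anti-CD226 and 688 and 843 with isotype. Cox4i1, the largest nuclear subunit, had 6085 and 3214 in anti-CD226 replicates 1 and 2, against 5155 and 6306 in isotype replicates 1 and 2. Cox8a, a small membrane subunit, had 4180.1 and 2693 with anti-CD226 and 3501 and 4467 with isotype. Ndufa4, first assigned to complex I and now placed in complex IV, had 2687 and 1616 with anti-CD226 and 2306 and 2879.6 with isotype. Cox4i1, Cox6b1, Cox7a2, Cox7a2l, Cox8a and Ndufa4 were each lowest in anti-CD226 replicate 2 and lay between the isotype libraries in anti-CD226 replicate 1. No measured gene carried the symbol of the isoforms Cox4i2, Cox8b or Ndufa4l2.

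Complex V, the ATP synthase, had 16 of 17 genes below 0 and a median log2 fold change of -0.24. The complex V median was -0.61 and 0.05 without anti-CD226 replicates 1 and 2 in turn, and -0.38 and -0.11 without isotype replicates 1 and 2 in turn. Atp5b, the catalytic beta subunit, had 31224 and 25973 in anti-CD226 replicates 1 and 2, against 28944 and 31013 in isotype replicates 1 and 2. Atp5a1, the alpha subunit, had 13396 and 12276 in anti-CD226 replicates 1 and 2, against 13106 and 13699.6 in isotype replicates 1 and 2. Atp5d, the delta subunit of the central stalk, was the gene with a fold change above 0 and had 4771 and 4317 with anti-CD226 and 4238 and 4689 with isotype. The small subunits Atp5e and Atp5md differed more between libraries than these head and stalk transcripts. Atp5e, the epsilon subunit of the central stalk, had 1834 and 723 in anti-CD226 replicates 1 and 2, against 1679.7 and 2068 in isotype replicates 1 and 2. Atp5md, a small membrane subunit, had 1953 and 817 in anti-CD226 replicates 1 and 2, against 1754 and 2088 in isotype replicates 1 and 2. Atp5e had the lowest value of any nuclear gene in anti-CD226 replicate 2, -1.37 against the isotype mean on the log2 scale, and -0.02 in anti-CD226 replicate 1. Its log2 fold change was -0.69 ± 0.38 (SE), with an adjusted p of 0.98 (limma).

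The proton-carrying ring of complex V is made of c subunits from 3 nuclear genes whose mature proteins are the same in mammals. Parts of their coding sequences are shown to give the likeness of these copies. Whether any reads were split between the genes was not tested. Each line gives a 90-base stretch inside 1 exon on the minus strand of GRCm38 (transcripts of GENCODE M21), and capitals mark the 24 positions at which the 3 genes are not all alike.
Atp5g1 chr11:96073107-96073196: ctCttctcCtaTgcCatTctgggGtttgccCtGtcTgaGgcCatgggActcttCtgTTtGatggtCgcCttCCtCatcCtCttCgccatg
Atp5g2 chr15:102663017-102663106: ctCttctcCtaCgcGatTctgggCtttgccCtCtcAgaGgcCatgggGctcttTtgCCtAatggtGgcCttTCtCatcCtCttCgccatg
Atp5g3 chr2:73908596-73908685: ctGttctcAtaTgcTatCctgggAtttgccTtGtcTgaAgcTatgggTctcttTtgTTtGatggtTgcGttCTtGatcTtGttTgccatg
Over the last 75 codons, Atp5g1 and Atp5g2 were 84.9% identical, Atp5g1 and Atp5g3 80.0%, and Atp5g2 and Atp5g3 78.7%. Atp5g1 had 2725 and 2104 with anti-CD226 and 2332 and 2726 with isotype. Atp5g2 had 1939 and 1137 with anti-CD226 and 1606 and 2177 with isotype. Atp5g3 had 7318 and 5056 with anti-CD226 and 6216 and 7913 with isotype. Per kilobase of transcript, Atp5g1, Atp5g2 and Atp5g3 averaged 4147, 3888 and 9279.6 normalised reads, and each gene was lowest in anti-CD226 replicate 2. Their log2 fold changes were -0.07, -0.33 and -0.21 for Atp5g1, Atp5g2 and Atp5g3.

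How far a nuclear gene lay below the isotype mean in anti-CD226 replicate 2 went with the length of its transcript. The 10 lowest genes in that library, among them Atp5e, Atp5md, Uqcr10 and Cox7a1, had transcripts of 362 to 1001 bases, and the 10 highest had 680 to 3171 bases. Atp5e has a transcript of 421 bases, and Ndufs1 one of 2590 bases. Across the 81 nuclear genes, log10 length and the difference from the isotype mean had a Pearson r of 0.65 and a Spearman rho of 0.63 in anti-CD226 replicate 2, and 0.07 and 0.11 in the other anti-CD226 library. In isotype replicates 1 and 2 Pearson r was 0.44 and -0.44, mirrored because the isotype mean is the zero line. Genes are not independent replicates, and all points of a library share its depth and amplification, so these values describe the libraries. The other 12807 genes with a length had a Pearson r of -0.04 and 0.45 in anti-CD226 replicates 1 and 2. Within complexes, r in anti-CD226 replicate 2 was 0.69 over the 36 genes of complex I and 0.69 over the 17 of complex V. It was 0.84 over the 8 genes of complex III and 0.08 over the 15 of complex IV. The complex IV genes include Cox6a2, Cox6b2 and Cox7a1, which rested on few reads, and their longest transcript is 1076 bases (Cox7a2l).

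Respiratory chain transcripts are short, with a median of 745 bases for the 81 nuclear genes and 2596 bases for all other genes tested. Among transcripts of at most 600 bases, the median difference from the isotype mean in anti-CD226 replicate 2 was -0.85 on the log2 scale over 27 nuclear members and -0.55 over 680 other genes. Among transcripts above 600 and up to 1000 bases it was -0.61 over 27 nuclear members and -0.42 over 1003 other genes. Short transcripts of other genes were thus low in that library too, and the members lay below them in both classes. Above 1000 and up to 1600 bases the medians were -0.47 over 13 members and -0.26 over 1768 other genes, and above 1600 and up to 3000 bases they were -0.18 over 12 members and -0.04 over 4077 other genes. These classes and the longest one hold fewer than 20 members each. In anti-CD226 replicate 1 the member medians were 0.05 and 0.09 in the classes up to 600 and up to 1000 bases, and those of other genes were 0.07 in both. With the trend on length removed from each library, the median log2 fold change of the nuclear genes was -0.09 in place of -0.26, and by complex it lay between -0.10 (complex IV) and -0.06 (complex II). The part of length in the nuclear values was not tested further.

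**Figure D3:**
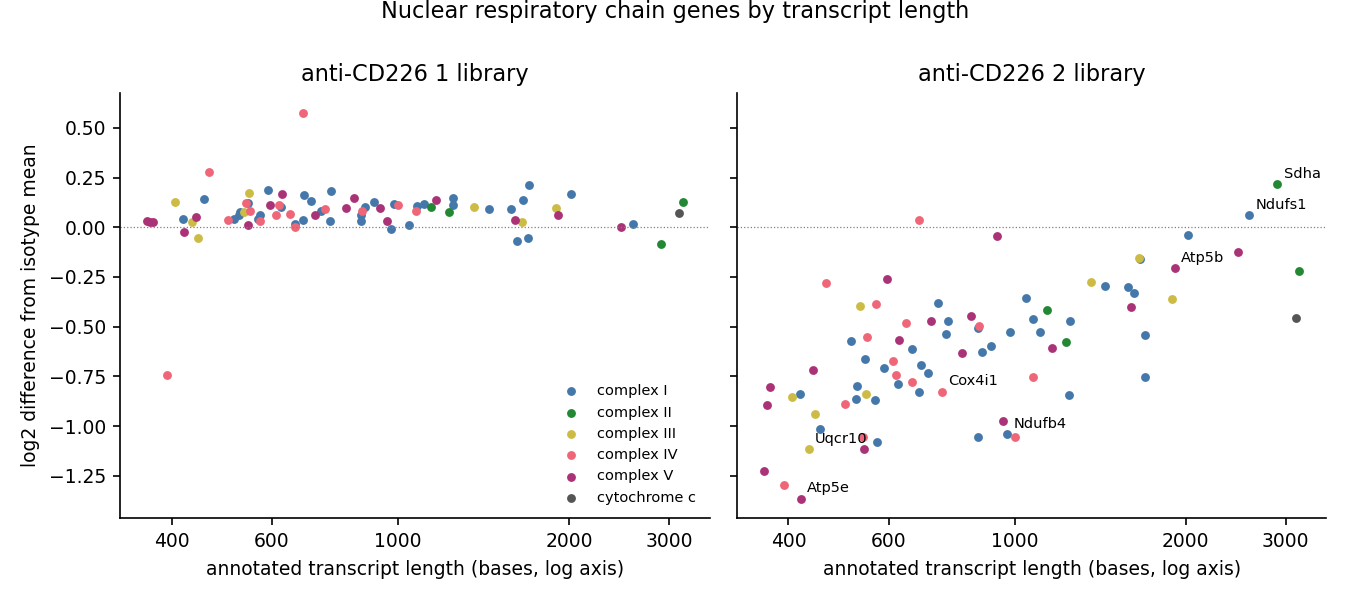
The horizontal axis is transcript length in bases on a log scale and the vertical axis is log2(value + 1) minus the isotype mean. Points are the 81 nuclear genes, coloured by complex, with a panel for each anti-CD226 library. Short members lie lowest in anti-CD226 replicate 2, where r was 0.65, and show no such slope in replicate 1, where r was 0.07.

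Nuclear respiratory genes are known targets of the transcription factors NRF1, of the ETS family (which includes GABP) and YY1. Promoter windows from RefSeq (GRCm38.p6), from 250 bases before to 50 bases after a start, were found for 67 of the 81 nuclear genes (72 windows), and 3 motifs were searched on both strands. The NRF1 type motif, GCGCA and GCGC with any base between, was in 18 of the 72 windows and in 4.60% of all 32851 windows. The ETS type motif CCGGAAG was in 17 windows (23.6%, against 8.86% of all windows), and the YY1 type motif GCCATNTT was in 17 (23.6%, against 6.05%). No motif holds another of them, but a window may hold several. Parts of 4 promoters with the NRF1 type motif, 1 for each nuclear complex that had such a match upstream of the start, show its setting on the minus strand, with the motif in capitals.
Ndufs5 chr4:123718240-123718319: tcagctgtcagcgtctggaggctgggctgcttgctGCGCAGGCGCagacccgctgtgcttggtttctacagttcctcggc
Sdha chr13:74350294-74350373: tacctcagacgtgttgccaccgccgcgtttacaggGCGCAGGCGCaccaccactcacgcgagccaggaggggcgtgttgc
Cox6a1 chr5:115349076-115349155: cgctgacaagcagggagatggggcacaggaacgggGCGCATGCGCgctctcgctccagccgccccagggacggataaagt
Atp5c1 chr2:10080433-10080484: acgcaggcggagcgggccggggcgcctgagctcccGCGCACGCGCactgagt
The first base of the motif lies 98 bases before the start in Ndufs5 (complex I), 98 in Sdha (complex II), 162 in Cox6a1 (complex IV) and 17 in Atp5c1 (complex V). Their values were not alike: in anti-CD226 replicate 2 the difference from the isotype mean was 0.22 for Sdha, -0.39 for Cox6a1, -0.61 for Atp5c1 and -0.87 for Ndufs5. The median of that difference was -0.61 over the 17 nuclear genes with the NRF1 type motif and -0.59 over the 50 without it. With and without the ETS type motif it was -0.63 and -0.56, and for the YY1 type motif it was -0.60 and -0.59. Genes with and without each motif were therefore close to each other. A match is only a stretch of letters and no measured binding site.

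The 13 mitochondrially encoded genes were not low as a group in anti-CD226 replicate 2. Of the 13, 6 had a log2 fold change above 0 and 7 below it, with a median of -0.07, which was 0.17 without isotype replicate 2 and -0.28 without isotype replicate 1. With the trend on length removed from each library, it was 0.13. That trend was fitted over all genes with a length, and the mitochondrially encoded genes did not follow it. In isotype replicate 1 their length had a Pearson r of -0.50 with the difference from the isotype mean. All other genes tested had 0.26, so the 0.13 is uncertain. Against the isotype mean the median of the 13 genes was -0.01 and -0.12 in anti-CD226 replicates 1 and 2, against -0.29 and 0.29 in isotype replicates 1 and 2. The widest gap thus lay within the isotype group. Isotype replicate 2 exceeded isotype replicate 1 for 12 of the 13 genes, the exception being mt-Nd4l, by a median ratio of 1.5, against 1.20 for the nuclear genes. Between the anti-CD226 libraries the median ratio of replicate 2 to replicate 1 was 0.947 for mitochondrially encoded genes and 0.635 for nuclear genes. Anti-CD226 replicate 1 lay between the isotype libraries for 11 of the 13 genes, and for 5291 of the 13010 genes tested. Anti-CD226 replicate 2 lay between them for 8 of the 13.

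Complex I takes 7 core membrane subunits from mitochondrial DNA. Per kilobase the highest was mt-Nd1, with 11317 normalised reads (mean of 4 libraries), and its values were 10679 and 11318 in anti-CD226 replicates 1 and 2, against 8543 and 12782 in isotype replicates 1 and 2. The proton-pumping subunits mt-Nd2, mt-Nd4 and mt-Nd5 had lower levels. mt-Nd2 had 2444 and 2314 with anti-CD226 and 2038 and 3145 with isotype. mt-Nd4 had 3053 and 3528 with anti-CD226 and 2509 and 3763 with isotype. mt-Nd5 had 3339 and 3392 with anti-CD226 and 3031 and 4497 with isotype. In each of these 4 genes, both anti-CD226 values lay between the isotype values. mt-Nd6, the one protein gene on the other strand, had 531 and 389 with anti-CD226 and 404 and 604 with isotype. mt-Nd3 was the member with the smallest p. mt-Nd3, a small subunit at the joint of the 2 arms of complex I, had 422 and 212 in anti-CD226 replicates 1 and 2, against 474 and 683 in isotype replicates 1 and 2. Both anti-CD226 values lay below both isotype values, that of replicate 2 furthest. The log2 fold change was -0.93 ± 0.33 (SE), with an unadjusted p of 0.025 and an adjusted p of 0.98 (limma). Per read of mt-Nd4, mt-Nd3 stood at 0.138 and 0.0600 with anti-CD226 and at 0.189 and 0.182 with isotype (exact permutation test, two-sided p = 0.33, the smallest that 2 against 2 libraries allow). This ratio uses the same values that gave mt-Nd3 the smallest p of the members, so its own p adds no support.

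Complex III takes 1 subunit from mitochondrial DNA, mt-Cytb, the cytochrome b that passes electrons across the membrane. mt-Cytb had 11646 and 14334 in anti-CD226 replicates 1 and 2, against 8623 and 13842 in isotype replicates 1 and 2. It was the mitochondrially encoded gene with the highest log2 fold change, 0.24 ± 0.24 (SE), and was highest of the 4 libraries in anti-CD226 replicate 2. Complex IV takes its 3 core subunits, of which mt-Co1 holds the site of oxygen reduction, mt-Co2 receives electrons from cytochrome c and mt-Co3 adds to the membrane core. mt-Co1 had 11509 and 8550.1 in anti-CD226 replicates 1 and 2, against 11431 and 17491 in isotype replicates 1 and 2. mt-Co2 had 5313 and 5761 in anti-CD226 replicates 1 and 2, against 4072 and 6497 in isotype replicates 1 and 2. mt-Co3 had 12416 and 6199 in anti-CD226 replicates 1 and 2, against 10349.5 and 16428 in isotype replicates 1 and 2. mt-Co1 and mt-Co3 were lowest in anti-CD226 replicate 2, and mt-Co2 was not. The log2 fold changes were -0.51 ± 0.24 (SE) for mt-Co1 and -0.57 ± 0.34 (SE) for mt-Co3, with adjusted p-values of 0.98 each (limma). The ratio of mt-Co3 to mt-Cytb was 1.07 and 0.432 with anti-CD226, against 1.20 and 1.19 with isotype (exact permutation test, two-sided p = 0.33, the smallest possible). It sets a gene of low fold change against the one of highest fold change in the same values, so its p adds no support. Complex V takes mt-Atp6, the proton channel, and mt-Atp8, which lies beside it. mt-Atp6 had 10531 and 9152 with anti-CD226 and 8947 and 11912 with isotype. mt-Atp8 had 999.7 and 808 with anti-CD226 and 691 and 963 with isotype, and neither had groups that stood apart.

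Several mitochondrial genes share bases with a neighbour, and these overlaps are shown because a read within them can belong to either gene. Each line gives 120 bases of the plus strand of mitochondrial DNA (GRCm38) at the end of the first gene. Capitals mark the bases that it shares with the next gene, mt-Atp6 for mt-Atp8 and mt-Nd4 for mt-Nd4l.
mt-Atp8 chrM:7850-7969: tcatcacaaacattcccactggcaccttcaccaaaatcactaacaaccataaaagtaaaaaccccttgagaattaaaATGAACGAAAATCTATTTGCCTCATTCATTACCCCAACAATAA
mt-Nd4l chrM:10054-10173: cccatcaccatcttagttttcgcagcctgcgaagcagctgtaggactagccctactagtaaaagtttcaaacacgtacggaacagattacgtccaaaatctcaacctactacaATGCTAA
The overlap is 43 bases of the 204 bases of mt-Atp8 and 7 bases of the 297 bases of mt-Nd4l. mt-Atp8 and mt-Atp6 had log2 fold changes of 0.14 and -0.07. mt-Nd4l, a small core subunit, had 52.2 and 55.0 with anti-CD226 and 63.2 and 44.2 with isotype, and mt-Nd4 beside it had 0.09 as its log2 fold change. mt-Nd5 and mt-Nd6 overlap on opposite strands, and since the sources used here do not give the treatment of strand, their shared reads cannot be told apart. The ratio of mt-Nd6 to mt-Nd5 was 0.159 and 0.115 with anti-CD226, against 0.133 and 0.134 with isotype.

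Along mitochondrial DNA the differences from the isotype mean in anti-CD226 replicate 2 were not even. The lowest genes, mt-Co1, mt-Co3 and mt-Nd3, stood at -0.73, -1.07 and -1.42 on the log2 scale, and the highest, mt-Cytb, at 0.39. The values did not fall steadily in genome order. Between mt-Co1 and mt-Co3, mt-Co2, mt-Atp8 and mt-Atp6 stood at 0.16, -0.01 and -0.17, and after mt-Nd3, mt-Nd4l and mt-Nd4 stood at 0.05 and 0.20. In anti-CD226 replicate 1, mt-Co1, mt-Co3, mt-Nd3 and mt-Cytb stood at -0.30, -0.07, -0.43 and 0.09. Genes cut from the same long transcript thus had unlike values within 1 library. The summed share of the mitochondrial ribosomal RNAs, mt-Rnr1 and mt-Rnr2, was 0.128% and 0.0752% with anti-CD226 and 0.107% and 0.233% with isotype. The length of the 13 mitochondrially encoded genes had a Pearson r of -0.28 and 0.17 with the difference from the isotype mean in anti-CD226 replicates 1 and 2. In isotype replicates 1 and 2 it was -0.50 and 0.50, opposite in sign to the nuclear genes (0.44 and -0.44).

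**Figure D4:**
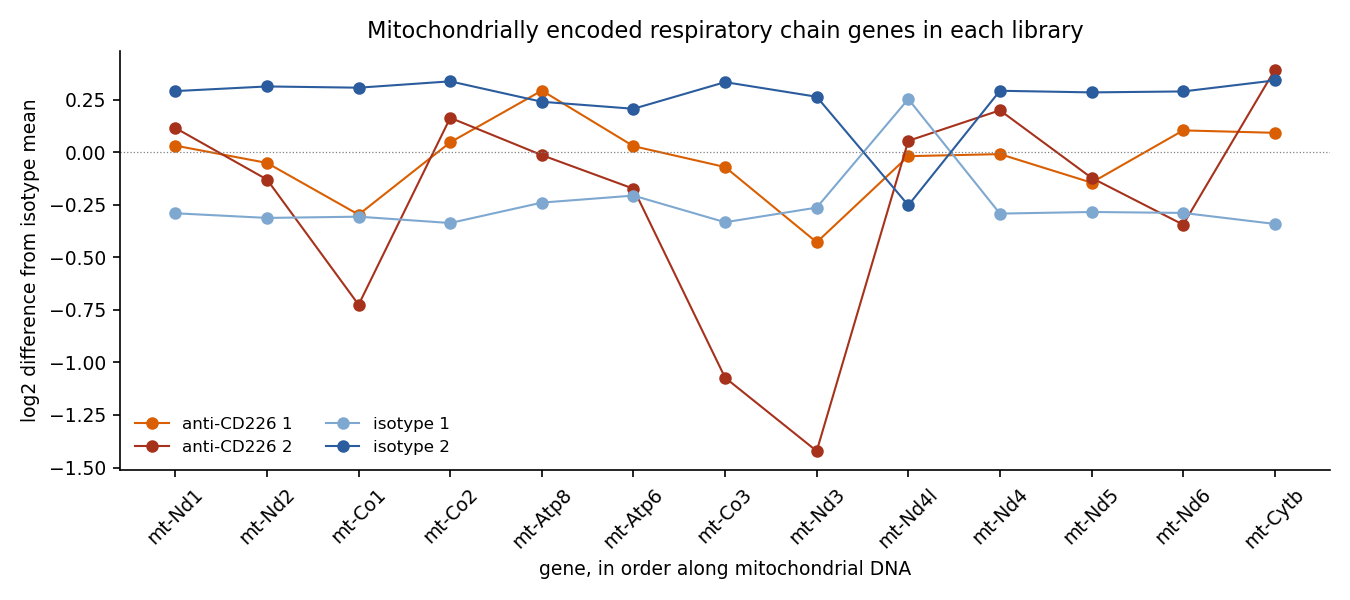
The 13 protein genes of mitochondrial DNA are placed in genome order along the horizontal axis, and the vertical axis is log2(value + 1) minus the isotype mean in each library. Points are values in single libraries, joined by lines for each library. Anti-CD226 replicate 2 lies lowest at mt-Nd3 (-1.42) and mt-Co3 (-1.07) and above the isotype mean at mt-Cytb (0.39).

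The ratio of mitochondrially encoded to nuclear signal differed by complex as well. For complex I it was 0.337 and 0.539 with anti-CD226 and 0.318 and 0.411 with isotype. For complex III it was 0.496 and 0.902 with anti-CD226 and 0.412 and 0.575 with isotype. For complex IV it was 0.660 and 0.781 with anti-CD226 and 0.679 and 0.867 with isotype, and for complex V 0.120 and 0.140 with anti-CD226 and 0.111 and 0.132 with isotype. In complexes I, III and V, anti-CD226 replicate 2 had the highest ratio of the 4 libraries, and isotype replicate 2 the next. Complex IV differed from these in that isotype replicate 2 had the highest ratio.

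Levels per kilobase of transcript (mean of the 4 libraries) place the subunits beside each other. Among nuclear genes, Atp5b had the highest level, 15286 normalised reads per kilobase. The nuclear medians were 5327 in complex IV (12 genes with a mean above 50), 4147 in complex V, 3579 in complex III, 2204 in complex II and 1512 in complex I, and Cycs stood at 2969.7. Within complex I nuclear genes ranged between 533 (Ndufs4) and 4067 (Ndufa1), and these ranges overlapped between complexes. The subunits of a complex are built into it in set numbers, yet their transcript levels spread several-fold. Among mitochondrially encoded genes, mt-Atp6, mt-Co3, mt-Nd1 and mt-Cytb had the highest levels, 14883, 14475, 11317 and 10587 normalised reads per kilobase. mt-Nd4l had the lowest, 181, but it is a gene of 297 bases that overlaps mt-Nd4. How reads were assigned between these neighbours was not tested, so that level is uncertain. mt-Nd3, at 1287, and mt-Nd6, at 929, also lay below the nuclear median of complex I. Mitochondrially encoded levels were thus not above nuclear ones throughout.

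**Figure D5:**
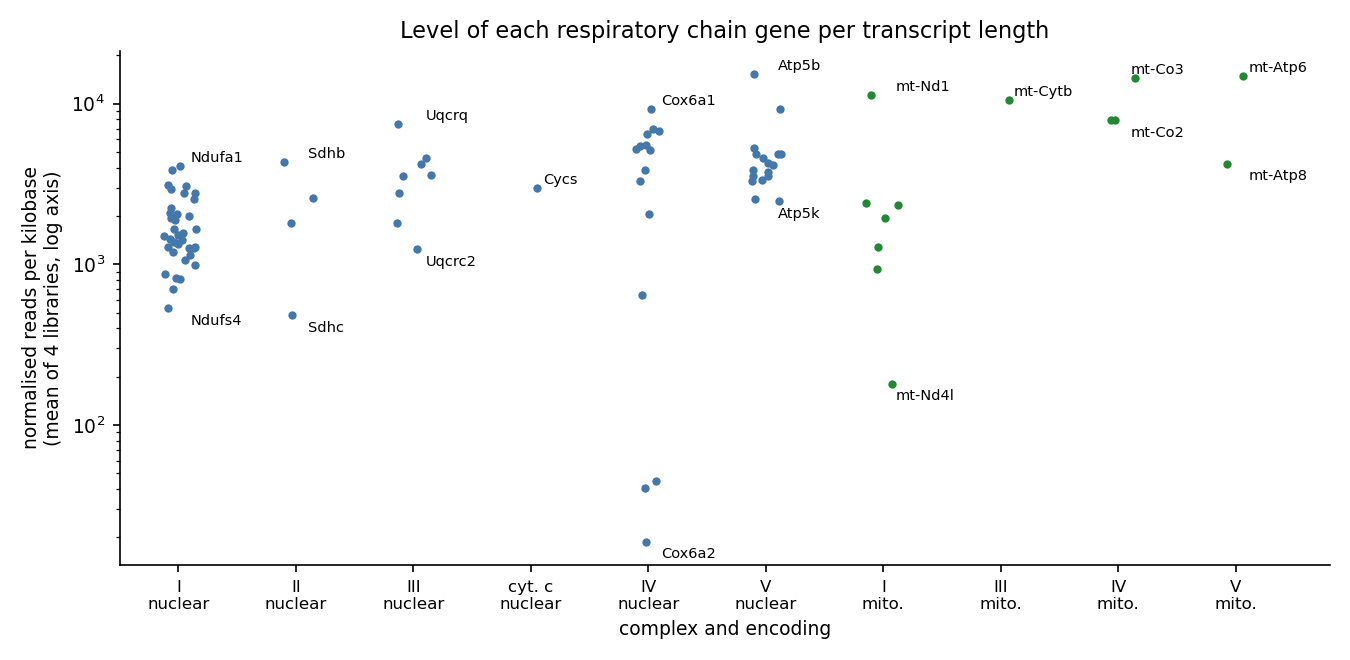
The vertical axis is the mean level over the 4 libraries in normalised reads per kilobase of transcript on a log scale, and genes are grouped along the horizontal axis by complex and by nuclear or mitochondrial encoding. Each point is a gene. Atp5b is the highest nuclear gene at 15286. mt-Nd4l is the lowest mitochondrially encoded gene at 181, a level that is uncertain because it overlaps mt-Nd4.

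The symbols also matched 13 copies that carry a pseudogene symbol or annotation, of which 8 passed the filter on low values. One of these, Cox5b-ps, is annotated as protein coding in GENCODE M21 and was placed here by its symbol. Their median log2 fold change was -0.24, with 1 gene above 0 and 7 below, beside -0.26 for the nuclear genes. Against the isotype mean, the median of the copies was 0.09 and -0.65 in anti-CD226 replicates 1 and 2, and all 8 were lowest in anti-CD226 replicate 2, so the direction of their median rested on that library. The groups of Atp5l2-ps, Cox5b-ps and Cox7c-ps1 did not overlap and were lower with anti-CD226, which is 3 of the 8, where groups did not overlap for 26.8% of all genes tested. Reads may be split between such copies and their parent genes, which was not tested, and their values are uncertain. With the copies counted in, the nuclear median stayed at -0.26.

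Genes that build, regulate or feed the chain were read beside its subunits. Of 16 tested assembly factors of complex I, 13 had a log2 fold change below 0 and 3 above (median -0.13). For complex IV 17 of 21 were below 0 (median -0.12), for complex III 5 of 6 (median -0.09), for complex II 4 of 4 (median -0.26), and for the assembly factors and inhibitor of complex V 5 of 5 (median -0.20). Set against the isotype mean, the medians in anti-CD226 replicates 1 and 2 were 0.07 and -0.33 for the complex I list and -0.02 and -0.62 for the complex II list. They were 0.06 and -0.25 for complex III, 0.09 and -0.39 for complex IV, and 0.02 and -0.39 for complex V. As for the subunits, the low medians of these 5 lists lay in anti-CD226 replicate 2. Ndufaf2, which helps to assemble complex I, had 142 and 49.6 with anti-CD226 and 144 and 186 with isotype. Fmc1, an assembly factor of complex V, had 392 and 144 with anti-CD226 and 294 and 350.0 with isotype. Coa4, an assembly factor of complex IV, had 164 and 78.3 with anti-CD226 and 165 and 167 with isotype, and Sdhaf3, one of complex II, had 61.8 and 39.7 with anti-CD226 and 63.0 and 69.5 with isotype. In these 4 genes, too, the low library was anti-CD226 replicate 2. The smallest p-values in the higher direction belonged to Timmdc1 (complex I), with 90.6 and 56.2 with anti-CD226 and 66.3 and 64.9 with isotype, Lyrm7 (complex III), with 74.1 and 40.8 with anti-CD226 and 48.6 and 55.6 with isotype, and Cox10, which makes haem A for complex IV, with 604 and 648 with anti-CD226 and 525 and 567 with isotype. Uqcc1, a complex III assembly factor, had 479.8 and 482 with anti-CD226 and 549 and 522 with isotype. Cyc1 and Ndufab1 are subunits whose names fall outside the symbols searched, and both had a log2 fold change below 0 (median -0.21), with medians against the isotype mean of 0.04 and -0.45 in anti-CD226 replicates 1 and 2. Cyc1, the cytochrome c1 of complex III, had 3505 and 2792 with anti-CD226 and 3483 and 3826 with isotype.

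The genes of mitochondrial DNA transcription and its nuclear regulators had 10 of 18 above 0 and a median of 0.02, in anti-CD226 replicate 2 also 0.02. Lrpprc, which stabilises mitochondrial messenger RNAs, had 1197 and 1486 with anti-CD226 and 1241 and 948 with isotype. Esrra, a nuclear receptor that drives respiratory genes, had 283 and 197 in anti-CD226 replicates 1 and 2, against 335 and 336 in isotype replicates 1 and 2. Esrra was lower in both anti-CD226 libraries than in both isotype libraries, at a log2 fold change of -0.50 ± 0.23 (SE) and an adjusted p of 0.98 (limma). The tricarboxylic acid cycle and pyruvate dehydrogenase had 8 of 16 genes above 0 (median 0.00). Ogdh, a subunit of 2-oxoglutarate dehydrogenase, had 4384 and 6153 with anti-CD226 and 4893 and 3994 with isotype. Idh3b, a subunit of isocitrate dehydrogenase, had 1785 and 1165 with anti-CD226 and 1649.9 and 1842 with isotype. Of the genes for other electron entry and coenzyme Q synthesis, 10 of 19 were above 0 (median 0.03). Coq8a, a kinase-like protein of coenzyme Q synthesis, had 40.7 and 90.2 with anti-CD226 and 50.5 and 27.0 with isotype, and Coq2, an enzyme of that synthesis, had 642 and 536 with anti-CD226 and 758 and 749 with isotype. Across these 9 lists limma called 0 genes at an adjusted p below 0.05, against 0.0% of all genes tested. At an unadjusted p below 0.05 it had 0 genes of these lists, against 2.37% of all genes tested.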

How the data were processed

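RNA from 4 libraries of cultured lung ILC2s was measured, 2 with anti-CD226 and 2 with isotype control. Per the labels' protocols, cDNA was made with a low-input kit from 10 pg of RNA per sample (the unit may be misstated). Per the submitters' processing notes, the tools were DESeq2 (no version given), Partek 10.0 and STAR 2.7.8, with build mm10. The sources used here do not give annotation or strand. The deposited signal values, 1 for each gene and library, were normalised by the authors. They were checked against 1 step per library, up to 1000 steps and without zeros or the smallest fractions of a step. Of the values checked, 73.5% to 75.1% were whole multiples of the step (tolerance 0.02), too few for a count model. Depth is the total divided by the step.

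Genes with a mean of at least 10 were tested with limma 3.58.1 (trend) on log2(value + 1), which understates changes of low genes, with Benjamini-Hochberg adjustment (2 residual and 5.81 prior degrees of freedom). Exact permutation tests covered single values. Of the steps, the limma fit was tested on simulated data. There all genes had the same, independent spread, and no shift was shared across a library. Transcript lengths came from GENCODE M21 (98.8% of genes). Lists and members were chosen with earlier results of these data known. The genes named are the mitochondrially encoded ones, the most abundant and smallest p in each complex, fixed isoforms, and the smallest p in each related list. Ndufv2, Ndufs4, Ndufa1, Ndufs5, Atp5c1, Coq2, the pseudogene copies and the 10 lowest genes were named after values were seen. Alternatives covered pseudocount, filter, scaling, variance prior, length trend, replicate block and each library left out.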

Additional observations from a re-analysis of the deposited data

How the results depend on the processing

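The number of genes called over all genes tested, 0 as reported, was 20 with a replicate block and 61 with crossed replicate pairs, chosen after seeing the data because same-numbered libraries deviated apart (correlation -0.24). It ranged between 12 and 1633 with 1 library left out, highest without anti-CD226 replicate 1. The number of respiratory chain members called, 0 as reported, was 0 with the replicate block, 1 (mt-Nd3) with crossed pairs and between 0 and 55 with 1 library left out. The complex V median ranged between -0.61 and 0.052 with 1 library left out. The numbers do not pair the libraries. Pseudocount, filter, variance prior and trend left the count of members called at 0, and so did total, upper-quartile and quantile scaling. Upper-quartile scaling moved the median of all genes to -0.03, and with it mt-Nd4l to -0.022, Ndufs1 to -0.0028 and Atp5d to -0.015. With the length trend removed, the signs of mt-Atp6 (0.13), mt-Nd2 (0.059), mt-Nd6 (0.11), Ndufv1 (0.066), Uqcrc1 (0.015), Cox6a1 (0.045), Cox6b2 (0.24) and Atp5g1 (0.14) turned. For the mitochondrially encoded genes that trend came from all genes with a length and was not their own, so these turns are uncertain. At a pseudocount of 0.5, Cox6b2 was 0.0021. Leaving out 1 library turned the sign of these log2 fold changes, given as lowest to highest: mt-Atp6 -0.28 to 0.13, mt-Atp8 -0.10 to 0.38, mt-Co2 -0.23 to 0.44, mt-Cytb -0.099 to 0.58, mt-Nd1 -0.22 to 0.36, mt-Nd2 -0.40 to 0.22, mt-Nd4 -0.20 to 0.39, mt-Nd4l -0.24 to 0.27, mt-Nd5 -0.42 to 0.15, mt-Nd6 -0.41 to 0.17, Ndufb8 -0.83 to 0.038, Ndufv1 -0.16 to 0.14, Ndufa10 -0.038 to 0.17, Ndufs1 -0.0049 to 0.081, Ndufb1-ps -1.05 to 0.030, Sdha -0.082 to 0.22, Sdhb -0.42 to 0.10, Sdhd -0.58 to 0.075, Uqcrc1 -0.15 to 0.027, Uqcrq -0.85 to 0.13, Uqcr10 -1.12 to 0.027, Cox6a1 -0.39 to 0.033, Cox4i1 -0.83 to 0.094, Cox6a2 -0.31 to 0.93, Cox7a2 -0.78 to 0.0019, Atp5b -0.21 to 0.060, Atp5d -0.047 to 0.099, Atp5md -1.23 to 0.029, Cycs -0.45 to 0.073, Sdhc -0.22 to 0.13, Cox6b1 -0.74 to 0.11, Cox6b2 -0.63 to 0.63, Cox7a2l -0.76 to 0.080, Cox8a -0.55 to 0.080, Ndufa4 -0.67 to 0.060, Atp5g1 -0.26 to 0.11, Atp5g2 -0.72 to 0.052, Atp5g3 -0.47 to 0.061, Timmdc1 -0.22 to 0.46, Lyrm7 -0.34 to 0.50, Fmc1 -1.15 to 0.29, Ogdh -0.012 to 0.48, Idh3b -0.58 to 0.034. The cause was not tested. With 2 libraries a group, differences smaller than the gap between libraries were not detectable.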
